A study of Mus musculus with 6 samples.

Results

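A set of 3 genes of iron uptake and heme breakdown were followed through all cell classes of the mouse kidney under vehicle and furosemide. The members are Tfrc (transferrin receptor 1), Trf (transferrin) and Hmox1 (heme oxygenase 1), 3 of the 456 genes of the measured panel. The 3 genes were chosen on measured values of these same cells, namely their counts per library and class in furosemide against vehicle, so that their differences between treatments are given as a description and without a test. The cells came from kidneys of C57BL/6J mice aged 16 weeks. Every mouse ate a gel diet with 104 µmol sodium per kcal for 1 week, with furosemide at 70 mg per kg body weight in one group and vehicle in the other. Furosemide blocks Slc12a1, the carrier that takes sodium, potassium and chloride into thick ascending limb cells, and so delivers more salt to the segments behind them. Each treatment had 3 libraries, numbered 1, 3 and 5 for vehicle and 2, 4 and 6 for furosemide. Both groups shared the strain, age and diet, and the labels call the mice wild type.

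Most iron enters cells as transferrin, the iron carrier of plasma that Trf encodes, bound to the receptor that Tfrc encodes. The receptor and its load are taken up together, iron leaves transferrin in the acid endosome, and the receptor returns to the surface. Heme oxygenase 1 opens the heme ring and frees iron, carbon monoxide and biliverdin, and its gene is a classic target of the oxidative stress factor Nfe2l2. Tfrc messenger RNA is controlled largely by its own end: when iron is short, iron regulatory proteins hold stem loops in the 3′ untranslated region and protect the message from decay. In the kidney, transferrin that passes the glomerular filter is taken up by the proximal tubule, and macrophages clear heme and recycle its iron.

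The stem loops are shown because they are the part of the Tfrc message through which its level is known to be set. They were read from the GENCODE M21 transcript ENSMUST00000023486.14, which is 4890 bases long with a 3′ untranslated region of 2458 bases. The search asked for the loop CAGTGN, a stem of 5 paired bases on each side of it, with G-U pairs allowed, and a cytosine just before the stem, on the transcript strand only. Tfrc held 4 such stem loops, at bases 886 to 909, 1265 to 1288, 1330 to 1353 and 1377 to 1400 of its 3′ untranslated region. They are printed 5′ to 3′ with the 6 loop bases in capitals.
Tfrc stem loop 1: tatcggaagCAGTGCcttccataa
Tfrc stem loop 2: tatcgggagCAGTGTcttccataa
Tfrc stem loop 3: tatcggagaCAGTGAtctccatat
Tfrc stem loop 4: tatcgggaaCAGTGTttcccataa

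Of 3987 genes whose 3′ untranslated region is at least as long, 41 (1.03%) held at least 1 such stem loop in the first 2458 bases, and Tfrc was the only 1 with 4. The longest 3′ untranslated regions of Trf and Hmox1 in the same annotation, 249 and 570 bases, held 0. A match describes the letters of the message and says nothing of whether a protein was bound in these cells.

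The table held 22154 cells in 15 classes named by the authors, with 4819988 to 7635509 counts per library and a median of 1073 to 1540 counts per cell. The library with the lowest median depth was vehicle library 5. Of 21958 distinct cell numbers, 196 occurred in more than 1 library. The smallest sum of a class in a library held 12 cells. Some marker genes followed the class names: Slc12a3, the salt carrier of the distal convoluted tubule, was highest in the classes DCT and DCT2, Slc12a1 in the thick ascending limb (TAL), S100g in the connecting tubule (CNT), Hsd11b2 in the cortical collecting duct principal cells (CCD principal) and Lyz2 in Immune. Others did not. The connecting tubule markers Calb1 and Slc8a1 were highest in DCT2. Of the principal cell markers, Scnn1g was highest in CNT, and Aqp2 and Fxyd4 in the class called mystery cells. The T cell marker Cd8a was highest in CNT and the proximal marker Slc5a1 in TAL. The class OMCD principal carried markers of both principal and type A intercalated cells. In its vehicle libraries the 5 principal cell markers summed to 86071 to 101531 counts per 1000000 panel counts (CPM). The 3 type A intercalated markers summed to 71712 to 100998 CPM. Of these 3, Aqp6 was highest in this class, Slc4a1 in the type A intercalated class and Atp6v1g3 in the type B class. In the authors' second clustering the OMCD principal cells fell into clusters named for type A intercalated cells. These were AIC, with 133 vehicle and 108 furosemide cells, and AIC sub2, with 92 and 40. Mystery cells carried principal cell genes. Parvalbumin (Pvalb), another known marker of the early distal convoluted tubule, was close to absent even in DCT, at 1.57 CPM. Stress and early response genes were lower over all cells of each furosemide library than of each vehicle library. The ranges under vehicle and furosemide were 3099 to 3281 and 1162 to 2573 CPM for Hspa1a, 13219 to 17595 and 9124 to 12779 for Atf3, 28842 to 30446 and 24084 to 27095 for Fos, and 4158 to 4435 and 3024 to 3491 for Jun. These totals over all cells also follow the mix of classes, such as TAL with 23.7% of vehicle and 13.5% of furosemide cells. The part of these genes in the values below was not tested.

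Tfrc, the receptor gene, was highest in the distal convoluted tubule class DCT. Levels are the gene's CPM in the summed counts of the class. In vehicle libraries 1, 3 and 5, Tfrc in DCT stood at 3393, 3896 and 2405 CPM, a mean of 3231 ± 759 (SD, n = 3). Podocytes/Glom followed at 1030.2 ± 510.0 CPM, so that the DCT mean was 3.14-fold that of the next class, without overlap between their libraries. From there down to mystery cells, at 278 ± 51.6 CPM, each of 12 neighbouring pairs of classes overlapped, so that the order among them was not resolved by 3 libraries. That middle group held type B intercalated cells (BIC) at 997 ± 495 CPM, DCT2 at 830.2 ± 149, TAL at 676 ± 204 and CNT at 527 ± 141. It also held the 3 proximal tubule classes, between 367 ± 183 and 484 ± 153 CPM. Immune cells were lowest with 91.5 ± 45.2 CPM, apart from the class above them. DCT held 7.26% of the vehicle cells and 31.9% of their Tfrc counts, and TAL, with 23.7% of the cells, held 24.4%.

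**Figure D1:**
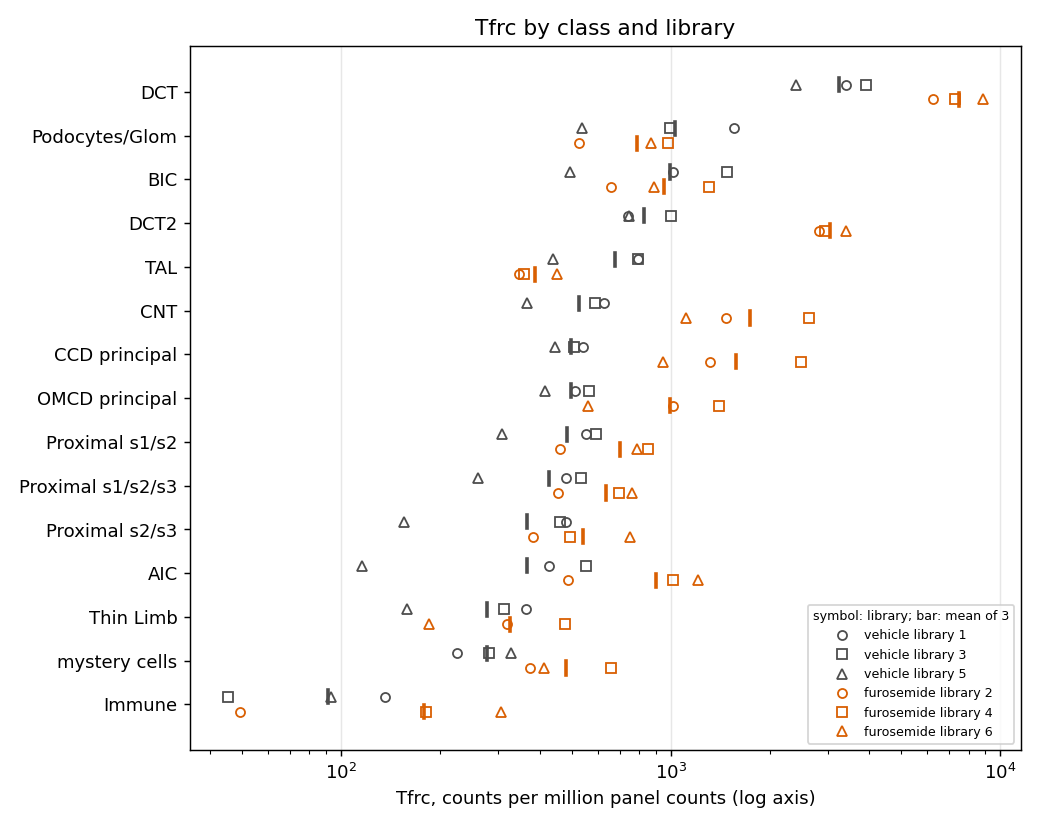
Tfrc in CPM (log axis) for the 15 classes, with 1 symbol per library, vehicle in grey and furosemide in orange, and the mean of 3 libraries as a bar. In DCT the furosemide libraries lie between 6249.7 and 8837 and the vehicle libraries between 2405 and 3896, and in TAL the furosemide libraries, at 347 to 453, have the lower mean and overlap the vehicle libraries, at 441 to 794.

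Under furosemide Tfrc was higher along the distal nephron, from DCT through DCT2 and CNT to the cortical principal cells. In DCT, furosemide libraries 2, 4 and 6 stood at 6249.7, 7302 and 8837 CPM. All 3 lay above the highest vehicle library, and the mean of 7463 ± 1301 CPM (SD, n = 3) was 2.31-fold the vehicle mean. The log2 change fitted by edgeR was 1.30 ± 0.23 (SE). The median change of all 275 genes tested in DCT was -0.02 on the same scale.

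DCT2 is the late distal convoluted tubule, where Slc12a3 and the calcium genes of the connecting tubule occur together. Vehicle libraries 1, 3 and 5 gave 740.5, 1003 and 748 CPM of Tfrc, and furosemide libraries 2, 4 and 6 gave 2814, 2943 and 3389. Every furosemide library was higher than every vehicle library, the ratio of means was 3.67, and the log2 change was 1.75 ± 0.24. In CNT the vehicle libraries gave 626, 590.1 and 366 CPM and the furosemide libraries 1469.5, 2621 and 1111. Furosemide library 4 was the highest there, the groups did not overlap, and the log2 change was 1.82 ± 0.30.

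In CCD principal, the cells of the cortical collecting duct that take up sodium and water, Tfrc stood at 540.3, 509 and 446 CPM in vehicle libraries 1, 3 and 5. Furosemide libraries 2, 4 and 6 stood at 1311, 2484 and 949.7 CPM, again with library 4 the highest and without overlap. The log2 change was 1.73 ± 0.37. Mystery cells had 225, 281 and 328 CPM under vehicle and 373, 657 and 414 under furosemide, on 12 to 33 cells per library. The groups did not overlap there either, but the gene did not reach the count needed for a fit. The ratio of means was 1.73.

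TAL, the segment furosemide acts on, had a lower mean under furosemide. Vehicle libraries 1, 3 and 5 held 794, 794 and 441 CPM of Tfrc and furosemide libraries 2, 4 and 6 held 347, 358 and 453. The groups overlapped by a single pair of libraries, vehicle library 5 and furosemide library 6, and the log2 change was -0.70 ± 0.28. The furosemide mean was 0.571 of the vehicle mean.

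Elsewhere the treatments overlapped for Tfrc. In OMCD principal the libraries stood at 512, 565 and 414 CPM under vehicle and at 1019, 1399 and 562 under furosemide, with furosemide library 6 within the vehicle range. The log2 change was 1.04 ± 0.32. The type A intercalated class (AIC) had 426, 555 and 115 CPM against 487, 1016 and 1207, with a log2 change of 1.37 ± 0.52. Connecting tubule markers in AIC summed to 103804 to 129843 CPM under vehicle and 116927 to 222856 under furosemide. Type A markers there summed to 107951 to 122423 and 74165 to 126053 CPM. The part of this mixture in the Tfrc values of AIC was not tested. The proximal classes had log2 changes of 0.62 ± 0.44 in Proximal s2/s3, 0.53 ± 0.33 in Proximal s1/s2 and 0.55 ± 0.31 in Proximal s1/s2/s3. In each of them, vehicle library 5 was the lowest of all 6 libraries and furosemide library 2 lay below vehicle libraries 1 and 3. BIC and Thin Limb had log2 changes of 0.01 ± 0.37 and 0.02 ± 0.43. In Podocytes/Glom the change was -0.37 ± 0.37, and in Immune cells 0.93 ± 0.67 on 20 and 40 counts in all.

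Counting classes, Tfrc was higher without overlap in 5 of 15. Over all classes and genes with a count, 5.59% of pairs of gene and class showed that pattern. For single classes the share of genes was 4.39% in DCT, 7.07% in DCT2, 4.88% in CNT, 8.21% in CCD principal and 5.19% in mystery cells. Nothing is read from this count for Tfrc, which was chosen on this contrast.

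**Figure D2:**
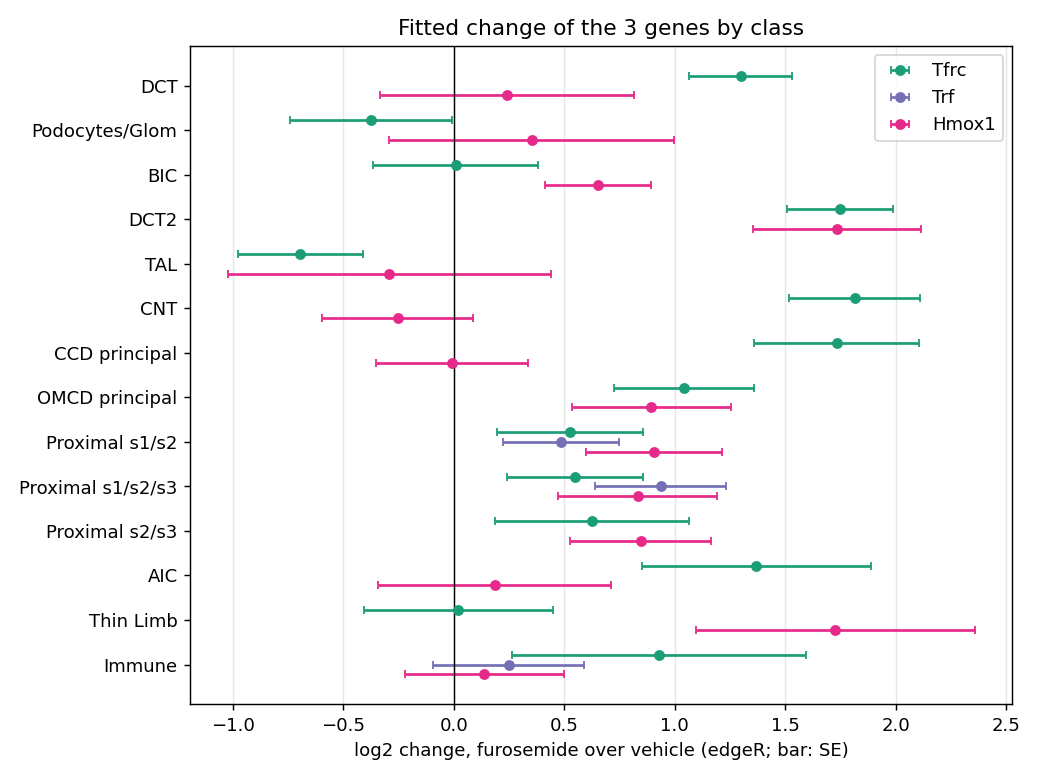
Log2 change of furosemide over vehicle with its standard error, from edgeR, for Tfrc, Trf and Hmox1 in the 14 classes where at least 1 of them was tested, in the order of the vehicle level of Tfrc. Tfrc lies at 1.30 to 1.82 in DCT, DCT2, CNT and CCD principal and at -0.70 in TAL, and Trf appears in 3 classes.

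Finer clusters of the authors divided the distal classes. Among DCT cells, the main cluster (DCT sub1) had 3155 ± 802 CPM of Tfrc under vehicle and 7365 ± 1261 under furosemide, and a smaller one (DCT sub2) had 3747 ± 1169.5 and 8759 ± 1244. Both had the higher mean under furosemide. In CNT the main cluster (CNT sub2) stood at 554 ± 144 and 1826 ± 769 CPM, and CNT sub3 at 335 ± 141 and 1085 ± 936, where furosemide library 4 alone was far above the others. All 4 of these clusters thus kept the direction of their class.

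More cells had a Tfrc count, and those cells had more of them. In DCT, 83.8 ± 10.2% of vehicle cells and 98.1 ± 1.48% of furosemide cells held at least 1 count (SD, n = 3), where the median counts per cell averaged 1305 and 1333 over the libraries. Per cell with a count, the mean was 5.70 counts under vehicle and 11.4 under furosemide. After each cell was thinned to 500 counts, the vehicle libraries 1, 3 and 5 had shares of 68.9%, 72.0% and 53.6%, while furosemide libraries 2, 4 and 6 had 88.2%, 92.7% and 96.6%. The groups did not overlap. Thinning left out the 5.79% of all cells that had fewer counts.

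In DCT2 the thinned share was 28.1 ± 4.31% under vehicle and 59.5 ± 3.79% under furosemide, from 58.1% and 78.8% before thinning. In CNT it was 21.6 ± 5.99% and 46.0 ± 15.6%, and in CCD principal 20.6 ± 0.797% and 45.2 ± 17.9%. Thinned shares were apart between treatments in all 4 of these distal classes. In mystery cells they overlapped, with 20.8% in the highest vehicle library and 20.6% in the lowest furosemide library. TAL had 24.8 ± 5.86% and 16.4 ± 2.65%, with overlap. Immune cells, the class with the lowest Tfrc level, had 4.95 ± 3.89% and 5.84 ± 2.57%, from 5.97% and 11.4% before thinning, where the median counts per cell averaged 732 and 876. The thinned shares of the 4 distal classes lay above those of Immune cells in every library, and the level of stray RNA was not measured.

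**Figure D3:**
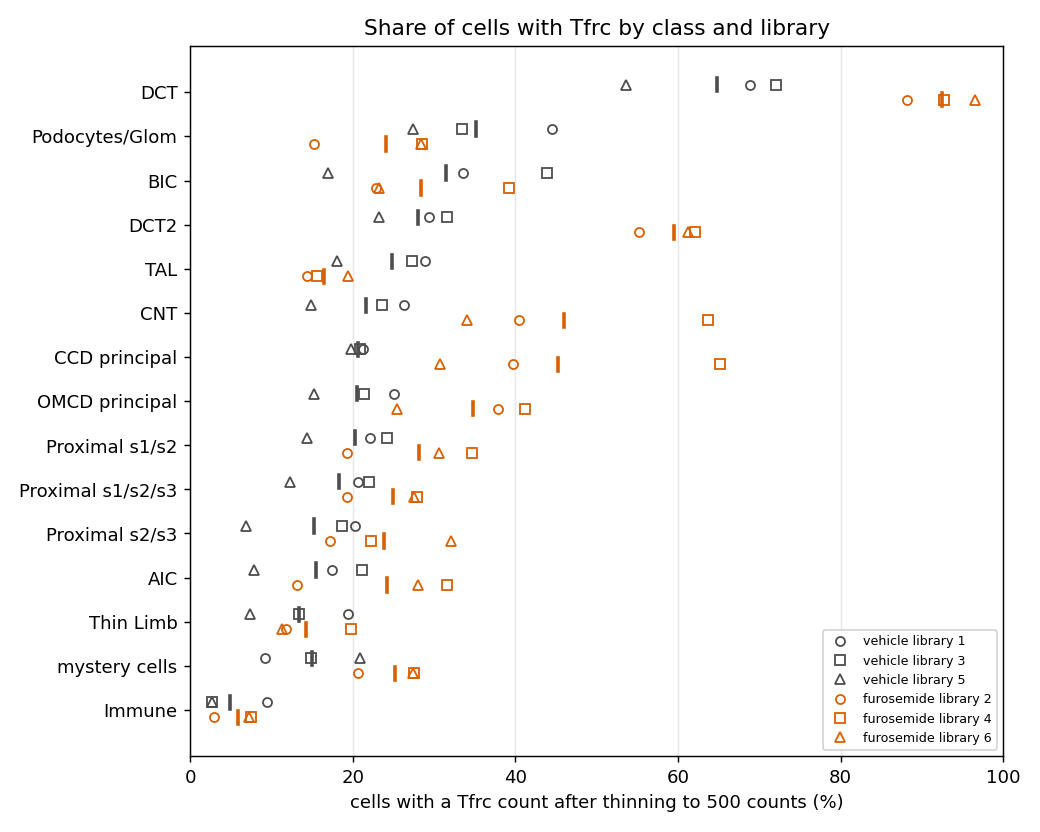
Share of cells with at least 1 Tfrc count after each cell was thinned to 500 counts, in percent, by class, with 1 symbol per library and the mean of 3 as a bar. DCT, DCT2, CNT and CCD principal have all furosemide libraries to the right of all vehicle libraries, with means of 92.5%, 59.5%, 46.0% and 45.2% against 64.8%, 28.1%, 21.6% and 20.6%.

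Marker lists of other segments shifted under furosemide in some of these classes, in both directions. In CCD principal the 4 connecting tubule markers (Calb1, Slc8a1, Trpv5 and S100g) summed to between 5848 and 10759 CPM in vehicle libraries and between 14367 and 24250 in furosemide libraries. None of the 4 was at 0. The type A intercalated list in CCD principal lay lower under furosemide, at 826 to 2024 CPM against 2214 to 3154 under vehicle. The type B marker Slc26a4 lay at 21 to 81 CPM against 140 to 242. In CNT the 3 DCT markers summed to 124 to 206 CPM under vehicle and 456 to 539 under furosemide, with 1 of them at 0, while DCT cells themselves held 93247 to 116416 over both treatments. The thick ascending limb list in CNT lay lower under furosemide, at 703 to 837 CPM against 1148 to 1234. The proximal list there lay at 928 to 1355 CPM against 1686 to 2464. In DCT the connecting tubule list lay at 34119 to 46370 and 45113 to 69559 CPM, and its own list at 93247 to 116416 and 96172 to 114734. The thick ascending limb list in DCT was higher than both, at 153702 to 216826 CPM under vehicle and 140503 to 193783 under furosemide. The proximal list in DCT lay at 2360 to 3513 and 1970 to 2230 CPM. The part of these shifts in the Tfrc values was not tested.

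Libraries differed in Tfrc in the same direction in many classes at once. Vehicle library 5 was the lowest of the 3 vehicle libraries in 12 of 15 classes, and furosemide library 2 was the lowest of its group in 11 of 15. Over all cells of a library, Tfrc stood at 830.2, 851 and 433 CPM under vehicle (libraries 1, 3, 5). Under furosemide (libraries 2, 4, 6) it stood at 1277, 1579.99 and 1519 CPM. Those totals also follow the mix of classes, since DCT cells were 7.26% of vehicle cells and 9.90% of furosemide cells in a table whose cell numbers the authors had made equal.

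Tfrc is known as a marker of growing cells, and the division genes Birc5 (survivin, of the chromosomal passenger complex) and Mki67 (the Ki-67 antigen) were in the panel. In DCT both rose under furosemide in edgeR's quasi-likelihood test, which called 4.73% of 275 genes there, Birc5 from 11.5 ± 6.43 to 177 ± 85.2 CPM (log2 change 3.98 ± 0.53, Benjamini-Hochberg adjusted p = 0.00517) and Mki67 from 8.56 ± 5.16 to 102 ± 31.3 CPM (3.64 ± 0.50, adjusted p = 0.00517). Both calls were lost without vehicle library 5, with log2 changes of 3.79 and 3.56 and an adjusted p of 0.0529 for each. Within furosemide libraries 2, 4 and 6 there were 14, 35 and 13 DCT cells with a count of either gene and 322, 431 and 282 without. No vehicle library had 10 such cells, so the comparison used the furosemide libraries alone, each as its own block, and is separate from the contrast the genes were chosen on.

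DCT cells with division transcripts held 5158, 6638 and 10119.8 CPM of Tfrc in libraries 2, 4 and 6, and cells without held 6306, 7357 and 8762. Tfrc was lower in the cells with division transcripts in libraries 2 and 4 and higher in library 6. The log2 difference was -0.21 ± 0.14 (95% interval -0.49 to 0.08) and did not pass edgeR's quasi-likelihood test (Benjamini-Hochberg adjusted p = 0.396 over 242 genes, of which 11.2% were called). With the stricter rule of counts of both genes, which left 5, 12 and 10 cells, the difference was -0.56 ± 0.19. It passed edgeR's test (adjusted p = 0.0443), which called 43 of 242 genes under this rule. Tfrc was lower in the cells with both in library 2 (3789 against 6286 CPM) and library 4 (4276 against 7408). In library 6 it was again higher (10162 against 8773 CPM).

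Hmox1 in the comparison by either gene had a log2 difference of 0.36 ± 0.19 (95% interval -0.03 to 0.75, adjusted p = 0.251 in edgeR's test). With counts of both genes its sign turned, to -0.63 ± 0.29 (95% interval -1.23 to -0.04, adjusted p = 0.142 in edgeR's test). Trf did not reach the count needed. In CNT only library 4 had enough cells with division transcripts, so no test was made there.

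Trf, the ligand of the receptor, belonged to other cells. Immune cells, all of which fall into clusters that the authors call macrophages, stood at 3608 ± 1079 CPM under vehicle, with Proximal s1/s2 next at 373 ± 41.6 and then Proximal s1/s2/s3 at 198 ± 23.9. Each of the 3 was apart from the next class. The other 12 classes had means under 40 CPM, and in AIC, DCT2 and mystery cells no Trf count was found in a vehicle library. Proximal s2/s3, the late proximal class, was among the low ones at 4.55 ± 3.71 CPM. Immune cells were 2.68% of vehicle cells and held 46.5% of their Trf counts.

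Between treatments, Trf in Immune cells stood at 3031, 2941 and 4853 CPM under vehicle (libraries 1, 3, 5) against 5910.1, 3458 and 4149.9 CPM under furosemide (libraries 2, 4, 6). The groups overlapped, and the log2 change was 0.25 ± 0.34. The share of Immune cells with a Trf count was 76.5 ± 5.62% and 77.8 ± 7.59%. In the cluster Macrophages sub1 the means were 4201 ± 1146 and 4838 ± 2082 CPM, and in Macrophages sub2 they were 2064 ± 793 and 3436 ± 1636.

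In Proximal s1/s2/s3 vehicle libraries 1, 3 and 5 had 173, 199.9 and 220.4 CPM of Trf and furosemide libraries 2, 4 and 6 had 343, 246 and 563. The groups did not overlap, a pattern shown by 5.54% of genes in that class, and the log2 change was 0.94 ± 0.30. In Proximal s1/s2 the libraries stood at 332, 373 and 415 CPM against 502, 399 and 656, with furosemide library 4 within the vehicle range and a log2 change of 0.49 ± 0.26. Without furosemide library 6 the latter was 0.20. Macrophage markers (Cd68, C1qa and Lyz2) summed to 6 to 28 CPM over all libraries of Proximal s1/s2/s3, against at least 44754 in Immune cells. In Proximal s1/s2 they reached more, with 10 to 335 CPM under vehicle and 8 to 414 under furosemide. Their part in the proximal Trf values was not tested.

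Within Proximal s1/s2/s3 the Trf counts lay in 1 of its finer clusters. The cluster called Proximal s1/s2 sub2 held 263 ± 31.3 CPM under vehicle and 470.3 ± 144 under furosemide, and Proximal sub1 held 13.7 ± 7.29 and 16.6 ± 17.5. The share of cells with a Trf count in Proximal s1/s2/s3 was 16.2 ± 2.18% under vehicle and 22.3 ± 4.78% under furosemide. Proximal s2/s3 had 0.795% and 0.578%, and the level of stray RNA was not measured.

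Podocytes/Glom had 31.5, 0 and 87.8 CPM of Trf under vehicle and 143, 478 and 96.8 under furosemide, on 9 and 56 counts in all. These groups did not overlap, as for 5.48% of genes there, but the gene was too sparse for the fit, and the highest vehicle and the lowest furosemide library were close. The macrophage markers in that class ranged from 125 to 325 CPM under vehicle and from 95.6 to 459.98 under furosemide. Their part in the Trf values was not tested. Trf passed the filter on low counts in 3 of 15 classes, Immune and the first 2 proximal ones.

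**Figure D4:**
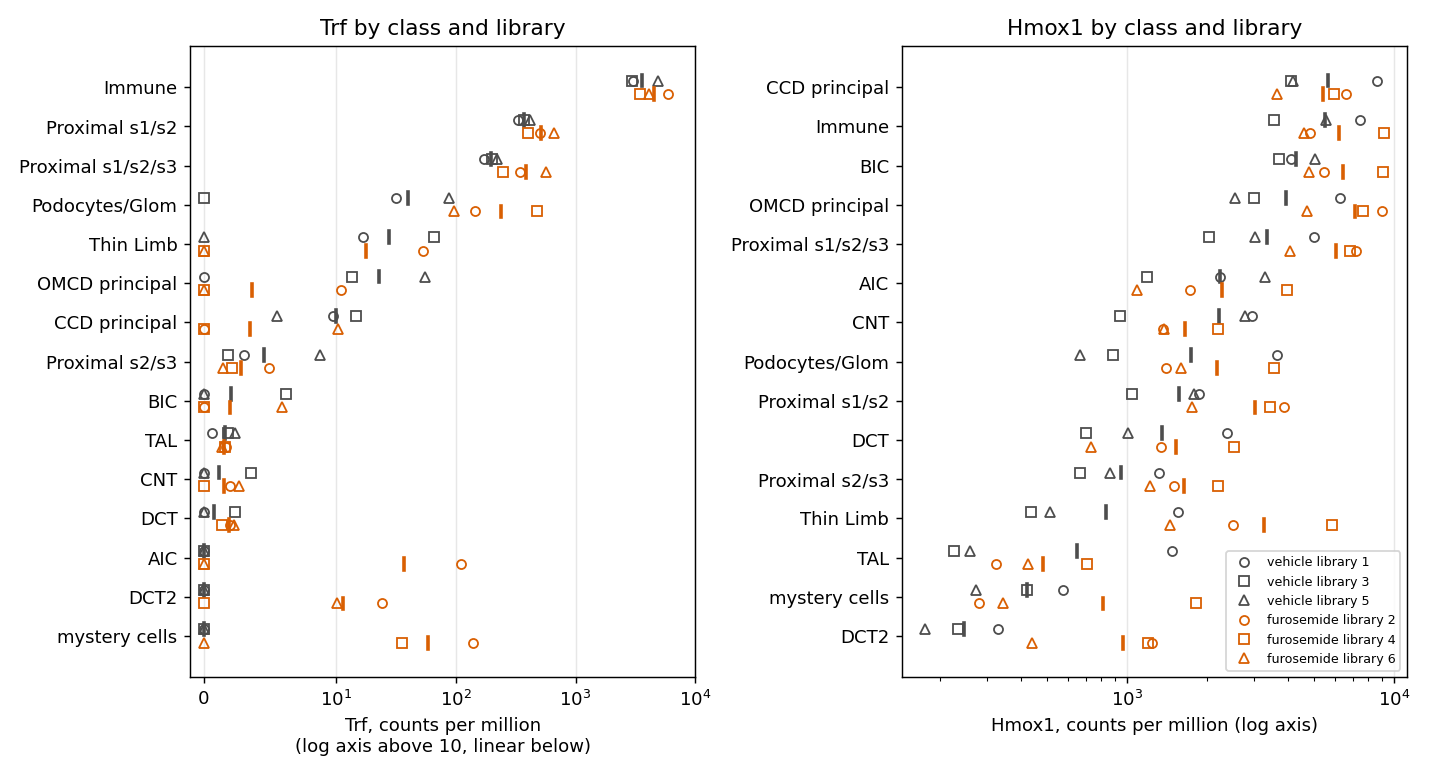
Trf (left, linear below 10 and logarithmic above) and Hmox1 (right, log axis) in CPM by class, each ordered by its vehicle mean, with 1 symbol per library and the mean of 3 as a bar. Trf is highest in Immune and 2 proximal classes, while the libraries of Hmox1 spread widely within each treatment, and DCT2 at the bottom is the class where its treatments do not overlap.

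Hmox1 was spread over the whole kidney, with a wide scatter between libraries. CCD principal stood highest under vehicle at 5652 ± 2578 CPM, then Immune cells at 5524 ± 1945 and BIC at 4287 ± 682. DCT2 was lowest at 245 ± 77.5 CPM. Neighbouring classes overlapped in every case, so the order has only a coarse meaning. In a macrophage, heme oxygenase 1 serves the breakdown of heme from old red cells, and in Immune cells Hmox1 stood at 7442, 3553 and 5576 CPM under vehicle and at 4864, 9157 and 4609 under furosemide. The groups overlapped, with a log2 change of 0.14 ± 0.36.

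DCT2, the class with the lowest level, was the only 1 of 15 in which the treatments did not overlap for Hmox1, a pattern that 7.07% of genes showed there. Vehicle libraries 1, 3 and 5 had 328, 232 and 175 CPM and furosemide libraries 2, 4 and 6 had 1246, 1204 and 443. Libraries 2 and 4 were far above the vehicle range and library 6 was closer to it, and the log2 change was 1.74 ± 0.38. The thinned share of DCT2 cells with a Hmox1 count was 10.1 ± 2.27% and 18.6 ± 4.39%, and the mean per cell with a count was 1.94 and 4.74 counts. The shares did not overlap either. In the finer cluster that holds most DCT2 cells (DCT sub3), however, the treatments overlapped, with Hmox1 at 339, 226 and 169 CPM under vehicle and at 1313, 852 and 336 under furosemide. The shares before thinning overlapped there too, with 29.3% in vehicle library 3 and 29.0% in furosemide library 6, while the thinned shares did not.

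The proximal tubule, which reabsorbs filtered heme proteins, had higher Hmox1 means under furosemide in all 3 of its classes. In Proximal s1/s2/s3 the libraries stood at 5023, 2030.3 and 3019.7 CPM under vehicle and at 7222, 6839 and 4071 under furosemide, a log2 change of 0.83 ± 0.36. Vehicle library 1 lay above furosemide library 6, so the groups overlapped. Proximal s1/s2 had 1861, 1046 and 1775 CPM against 3879, 3429 and 1745, and a log2 change of 0.91 ± 0.31. Proximal s2/s3 had 1322, 669 and 867 CPM against 1494, 2187 and 1224, and a log2 change of 0.85 ± 0.32. The same library, furosemide 6, was the low 1 in each of these classes.

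A small proximal cluster, Prox sub3, singled out after its values were seen, had 1353, 284 and 295 CPM under vehicle and 3767, 11902 and 1549.7 under furosemide. Library 4, with 20 cells, was far above the rest. Thin Limb likewise had 1552, 438 and 513 CPM against 2490.5, 5867 and 1455, a log2 change of 1.73 ± 0.63 in which vehicle library 1 overlapped furosemide library 6. That change was 2.54 without vehicle library 1 and 1.18 without furosemide library 4. DCT had 2362, 701 and 1011 CPM against 1340.5, 2520.3 and 733, with a log2 change of 0.24 ± 0.57. In CCD principal the change was -0.01 ± 0.34, from 8629, 4125 and 4202 CPM to 6612, 5951 and 3648.

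Vehicle library 1 was the highest vehicle library for Hmox1 in 13 of 15 classes and furosemide library 4 was the highest of its group in 10 of 15. Libraries 3 and 6 were the lowest of their groups in 11 of 15 classes each. In TAL, vehicle library 1 stood at 1469.9 CPM and vehicle libraries 3 and 5 at 225 and 259, against 325, 707 and 426 under furosemide. The log2 change there was -0.29 ± 0.73, and without vehicle library 1 it was 1.06.

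Tfrc and Trf were highest in different classes, while the top class of Hmox1 was not resolved. For Hmox1, CCD principal and Immune cells overlapped under vehicle, with means of 5652 and 5524 CPM. Under furosemide OMCD principal had the highest Hmox1 mean, at 7150 CPM. Tfrc was highest in DCT, where Trf had 0 to 2.36 CPM in every library. Trf was highest in Immune cells, where Tfrc was lowest. In DCT2 both Tfrc and Hmox1 had their furosemide libraries above all vehicle libraries, with log2 changes of 1.75 and 1.74. In CNT, Tfrc had 1.82 and Hmox1 -0.25 ± 0.34, and in CCD principal 1.73 and -0.01.

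Genes with the most similar profile were taken over the 15 class means of the vehicle libraries, as Pearson's r of log2(CPM + 1) among 403 genes. For Tfrc they were Socs2 (r = 0.77), a suppressor of cytokine signalling, Cyr61 (0.76), Bmp7 (0.72), Vegfa (0.71) and Trpm6 (0.70), the magnesium channel of the distal convoluted tubule. For Trf they were H2-Aa (0.83), Apoe (0.82), Cd74 (0.80), Lyz2 (0.79) and Itga5 (0.77), all highest in Immune cells, among them antigen presentation genes (H2-Aa, Cd74) and lysozyme (Lyz2). For Hmox1 they were Crem (0.73), Phlda1 (0.69), Icam1 (0.69), Gdf15 (0.69) and Mki67 (0.62). The classes share libraries and were clustered on these same genes, so the values describe likeness and nothing more.

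The panel held little else of iron or heme metabolism. Of 34 listed genes of iron transport and storage it held 3, Tfrc, Trf and Lcn2, and of 27 heme genes it held Hmox1 alone, so that ferritin, ferroportin and the iron regulatory proteins were not analysed here. Lcn2 encodes lipocalin 2, a protein that binds iron through bacterial siderophores. In CCD principal it stood at 4948, 4981 and 7649 CPM under vehicle and at 5819.7, 5742 and 5911 under furosemide, with overlap and a log2 change of 0.04 ± 0.19. In DCT it had 14.0, 7.08 and 60.1 CPM against 104, 474 and 46.0, where furosemide library 4 was far above the rest. Its log2 change there, 3.18 ± 1.12, did not pass edgeR's quasi-likelihood test (Benjamini-Hochberg adjusted p = 0.273). In CNT it had 104 ± 25.3 and 106 ± 80.1 CPM. In DCT2 it had 1 count in all under vehicle and 10 under furosemide. In mystery cells Lcn2 had 5905, 3931 and 7589.8 CPM under vehicle and 16604, 17456 and 11581 under furosemide, without overlap. That pattern was shown by 5.19% of genes there. Its log2 change there, 1.51, passed edgeR's quasi-likelihood test (adjusted p under 0.05), which called 3 of 131 genes in mystery cells. DESeq2 called it too. Both this class and CCD principal are named for Lcn2 after its values were seen.

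Few genes of the antioxidant defence, which shares the factor Nfe2l2 with Hmox1, passed edgeR's test. Of 25 listed antioxidant genes the panel held 5, Nfe2l2, Gpx1, Gpx6, Sod3 and Mt2. In DCT 0 of the 5 passed edgeR's quasi-likelihood test (1 at an unadjusted p under 0.05, 1 by DESeq2) and in CNT 0 of 5 (1 and 1). In DCT2 1 of 5 rose (1 and 1), and in TAL 1 of 5 fell (3 and 3). The gene that passed edgeR's test was Gpx6, a glutathione peroxidase, in both cases. Of all 317 genes tested in TAL, 56 had an unadjusted p under 0.05 and DESeq2 called 32. In DCT these were 40 and 22 of 275 genes, in DCT2 24 and 4 of 211, and in CNT 55 and 24 of 256. edgeR's test called 1.42% of the genes tested in DCT2, 5.08% in CNT and 4.73% in TAL. In DCT2 Gpx6 rose from 806 ± 146 to 2459 ± 387 CPM (log2 change 1.52 ± 0.25, Benjamini-Hochberg adjusted p = 0.00652 in edgeR's test), and the call was lost without the cells with the highest totals. In TAL it fell by 0.94 ± 0.18 on the log2 scale (adjusted p = 0.0426), from 9739 ± 969.6 to 4725 ± 841 CPM, with the call lost when any single library was left out. Nfe2l2 itself had log2 changes of -0.06 ± 0.14 in DCT and -0.15 ± 0.15 in DCT2.

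Tfrc and Hmox1 are also known targets of hypoxia-inducible factors. Of 24 listed genes of that pathway the panel held 11. In DCT 8 of them were tested and 0 passed edgeR's test, with a median log2 change of 0.02 beside -0.02 for all genes. In DCT2 0 of 7 passed (median -0.27 beside 0.02) and in CNT 0 of 7 (median -0.27 beside 0.01). At an unadjusted p under 0.05 there were 1 gene in DCT, 1 in DCT2 and 3 in CNT, and DESeq2 called 0 in each. Of all genes tested, 40 of 275 in DCT, 24 of 211 in DCT2 and 55 of 256 in CNT had such a p. DESeq2 called 22, 4 and 24 genes in these classes. In TAL 1 of 10 listed genes passed, cyclin D1 (Ccnd1), which fell by 1.29 ± 0.19 on the log2 scale (edgeR, adjusted p = 0.0177). The median log2 change of the 10 was -0.52 beside 0.001 for all genes in TAL. At an unadjusted p under 0.05 there were 2 of the 10, and DESeq2 called 2, beside 56 and 32 of all 317 genes tested there. Vegfa, the vascular growth factor, had log2 changes of -0.26 ± 0.20 in DCT, -0.27 ± 0.25 in DCT2 and -0.50 ± 0.19 in CNT.

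Of 20 listed genes of division and growth the panel held 4. In DCT Birc5 and Mki67 rose, and Ccnd1 and Myc did not pass, with log2 changes of 0.03 ± 0.19 and -0.63 ± 0.35. In TAL 3 of the 4 were tested, of which Ccnd1 and Myc fell, Myc by 0.86 ± 0.17 on the log2 scale (edgeR's quasi-likelihood test, adjusted p = 0.0426). The third, Birc5, had 2.88 ± 1.80 CPM under vehicle and 15.2 ± 3.33 under furosemide, a log2 change of 2.51 ± 0.56 that did not pass edgeR's test (adjusted p = 0.0553). DESeq2 called all 3, and 32 of all 317 genes tested in TAL. The Myc call was lost when any single library was left out and with relative log expression scaling, and the Ccnd1 call was lost without vehicle library 3, furosemide library 2 or furosemide library 4.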

How the data were processed

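Single-cell messenger RNA was captured on BD Rhapsody beads after mechanical and collagenase dissociation of whole kidneys, per the labels' protocols. The authors deposited whole-number counts per cell and gene for a panel, with an annotation table of library, treatment and cell class. Reads were aligned with Bowtie2 2.2.9, per the submitters' processing notes. Per the file names, doublets and a mixed cluster had been removed and cell numbers made equal between treatments. Neither the genome build nor the way reads were counted is given in the sources used here.

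For each of the authors' classes, the counts of its cells were added up by library and fitted separately from other classes. The fit was edgeR's quasi-likelihood model (version 4.0.16, R 4.3.3) with TMM scaling, filterByExpr and robust dispersions. A gene was called where p, adjusted by Benjamini-Hochberg over all genes tested in the class, was under 0.05. Log2 changes are from that fit, furosemide over vehicle. CPM values are counts of the gene per 1000000 panel counts of the sum, without TMM, so they are shares within the panel. Shares of cells with a count were taken as deposited and as the expected share after drawing 500 counts from each cell. DCT cells with at least 1 count of Birc5 or Mki67 were compared with the others within libraries that had at least 10 cells on both sides, with the library as a block. The fit was tested on simulated data.

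The 3 genes, the gene lists and the tests were chosen with earlier results of these data known. Genes named are the 3 members in every class, the panel's iron and heme genes where Tfrc is highest or called, called genes of the other lists, Birc5 and Mki67, and the 5 genes most like each member. TAL and its list genes, Lcn2 in 2 further classes, Hspa1a, Nfe2l2, and Ccnd1 and Myc in DCT were named after their values were seen. The annotation's library numbers could not be joined to the replicate numbers of the sample titles, and each sample is therefore given by its treatment and library number, with the annotation's control label read as vehicle. No source says that they are separate animals, so p-values measure only the spread between these samples, which may be technical. Alternatives were DESeq2 1.42.0, relative log expression scaling, library size alone, no filter, thinned cells, the second clustering, leaving out the top 5% of totals and leaving out each library.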

Additional observations from a re-analysis of the deposited data

How the results depend on the processing

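No paired analysis was possible because the annotation's library numbers do not carry the labels' replicate numbers. Tfrc kept its direction under all 13 alternatives in DCT (1.09 to 1.53 on the log2 scale), CNT (1.53 to 1.98), CCD principal (1.23 to 1.96) and TAL (-0.90 to -0.46), and under 12 in DCT2. In DCT2 its log2 change was 1.41 with thinned cells and 1.55 to 2.01 with a library left out. Trf in Proximal s1/s2 was 0.20 to 0.65 with a library left out, and in Immune cells its direction turned under 1 alternative (-0.04). Hmox1 in DCT2 lay between 1.48 and 2.06. With a library left out the sign turned for Hmox1 in AIC, CCD principal, CNT, DCT (-0.21 to 0.90), Immune, Podocytes/Glom and TAL (-0.61 to 1.06), and for Tfrc in BIC (-0.30 to 0.40) and Thin Limb (-0.19 to 0.31). The number of genes called moved more. In DCT it was 22 with DESeq2, 6 with thinned cells and 0 to 11 with a library left out. In DCT2 it was 5 with library size alone, 6 with thinned cells, 1 without the top totals and 3 to 5 with a library left out. In CNT it was 24 with DESeq2, 5 without the filter, 5 without the top totals and 0 to 8 with a library left out. In TAL it was 32 with DESeq2, 25 with thinned cells and 3 to 21 with a library left out. Tfrc in DCT cells with division transcripts differed by -0.56 (adjusted p = 0.0443, edgeR) where counts of both genes were asked for, and by -0.31 to -0.10 with a library left out. Hmox1 in that comparison turned from 0.36 to -0.63 where counts of both genes were asked for. The cause of these shifts was not tested. With 3 libraries per treatment and few cells in several classes, differences smaller than the spread between libraries were not detectable, and within a panel a share can be moved by other abundant genes.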
